A study of Mus musculus with 16 samples.

Results

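Liver RNA of the Del line of mice was compared with liver RNA of the Flox line, its control line, to describe how the transcripts of the livers differ between both engineered lines. The samples were chosen by their labels alone. The 4 Del samples have the condition delHox and the publication name CerS2 Del, the 4 Flox samples have the condition delneo and the publication name CerS2 Flox, and together they are 8 of the 16 samples of the series. All 8 mice were males of 6 weeks on a mixed background of 75% C57BL/6 and 25% SV129, and the labels name no treatment and do not say whether mice were littermates. The labels do not say what the delHox and delneo alleles contain, nor in which cells any recombination took place. The other 8 samples are 4 wild type (WT) mice and 4 mice of the H/A line, of the same sex, age and background, and they enter here only through the estimate of the spread and in the closing comparison. Labelling used 1 dye, the primers were partly random and partly oligo-dT, and each mouse was measured on 1 array.

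Ceramides are the core of sphingolipids, the membrane lipids built on a sphingoid base. Serine palmitoyltransferase makes the base, and ceramide synthases then attach a fatty acid, each enzyme preferring acyl chains of certain lengths. CerS2 prefers very long chains and is the main ceramide synthase of liver, and mice without its activity are known for liver disease with hepatocyte death and regrowth.

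All levels are the deposited log2 values, and a difference is the Del mean minus the Flox mean on that scale, so that 1 is a doubling. Beside a difference stand its 95% interval, unadjusted, and its adjusted p from limma over all 31484 genes tested. A gene was called at an adjusted p under 0.05, and only called genes are said to have risen or fallen. Of the genes tested 10948 were called (34.8%), 5231 higher in Del (16.6%) and 5717 lower (18.2%), and the median over all genes was -0.14. The split depended on the scaling: on the scanner signals without scaling 3407 genes were called higher and 959 lower, with a median of -0.08. It also rested on single arrays, with 3174 higher and 1924 lower without Del replicate 3, and 2757, 3271 and 3791 lower without Flox replicates 1, 3 and 4. The first principal component of the 8 arrays held 55.7% of the variance and set the Del arrays (35.1 to 95.4, highest in replicate 3) apart from the Flox arrays (-64.3 to -49.4). Each array had 51.6% to 63.5% of its spots well above background. Flox replicate 1 stood apart from the other Flox arrays in the genes that male liver expresses more highly, described further on. Slide 1 held Del replicate 1 and Flox replicates 1 and 2, and slide 2 held the other 5 arrays, so list medians are also given within each slide and with the slide as a block. No probe could be paired with Cers2 by name, so Cers2 itself could not check the labels and is not analysed here. RNA of whole liver was measured, so a change in the number of cells of a type and a change in RNA per cell cannot be told apart, and p-values describe the spread between these mice only. Small counts rested on single arrays: of 36 cases where a list had 1 or 2 members called in a direction, 21 had 0 without at least 1 of the 8 arrays. Lists and members were chosen with earlier results of these data known. Their counts, set beside the share over all genes, therefore describe the lists and do not test them.

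**Figure D1:**
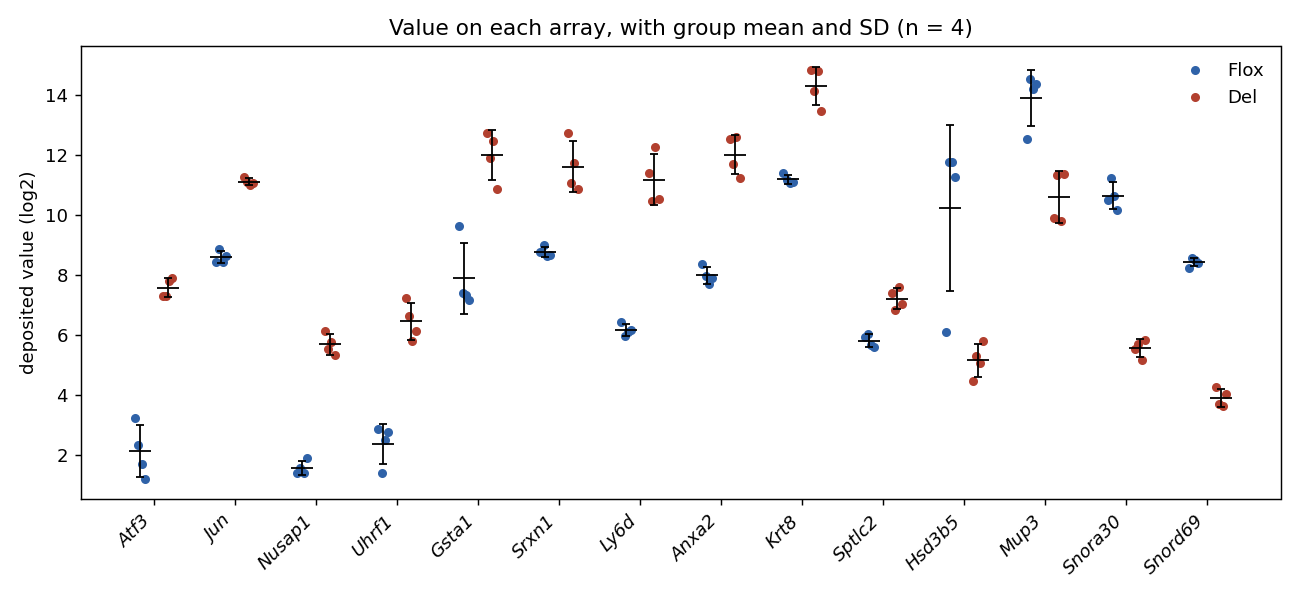
Deposited log2 value of 14 genes on each of the 4 Flox (blue) and 4 Del (red) arrays, with the group mean and SD as bars (n = 4). In each gene shown the Del and Flox points do not overlap, and in Hsd3b5 Flox replicate 1 (6.09) lies near the Del arrays while the other Flox arrays lie between 11.27 and 11.78.

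Most of the enzymes tested that make ceramide from serine rose in Del liver, while the remaining ceramide synthases went both ways. Of 13 genes of ceramide synthesis tested, 7 rose and 2 fell, with a median difference of 0.70 (0.61 within slide 1, 0.79 within slide 2, 0.71 with the slide as a block). Sptlc2, a catalytic subunit of serine palmitoyltransferase, stood at 7.38, 6.81, 7.59 and 7.03 on the 4 Del arrays and 5.93, 6.03, 5.67 and 5.58 on the 4 Flox arrays. The groups did not overlap, and the difference was 1.40 (0.97 to 1.83, adjusted p = 0.000386). Its partner subunit Sptlc1 rose by 0.88 (0.55 to 1.21, adjusted p = 0.00143), although its 3 probes ranged from -0.03 to 0.88. Sptssa, a small activating subunit, rose by 0.76 (0.44 to 1.07, adjusted p = 0.00282). Kdsr, the reductase of the next step, rose by 1.16 (0.72 to 1.60, adjusted p = 0.00145), and Degs1, the desaturase that turns dihydroceramide into ceramide, by 1.28 (0.81 to 1.74, adjusted p = 0.00113). Sptlc3, another catalytic subunit of serine palmitoyltransferase, differed by -0.32 (-0.59 to -0.06, adjusted p = 0.0559), and Degs2, a second desaturase, by -0.42 (-0.81 to -0.03, adjusted p = 0.0802) through its brightest probe, its 2 probes differing in sign. Neither was called.

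Among the ceramide synthases, Cers6, which prefers shorter chains, stood at 5.65, 5.66, 5.98 and 5.83 on the 4 Del arrays and 5.55, 4.29, 4.31 and 5.28 on the 4 Flox arrays. Its lowest Del array lay just above its highest Flox array, and it rose by 0.92 (0.38 to 1.47, adjusted p = 0.0156). Cers5 rose by 0.67 (0.17 to 1.16, adjusted p = 0.0386), with Flox replicate 2 (5.07) above the other 3 Flox arrays. Cers4 fell by 0.52 on the log2 scale (adjusted p = 0.0318) and Cers1 by 0.45 (adjusted p = 0.0163). Each of these 4 calls was lost without Del replicate 3 (adjusted p = 0.135 for Cers5, 0.11 for Cers4, 0.0556 for Cers1 and 0.0515 for Cers6). That of Cers4 was also lost without Del replicate 1 or Flox replicate 3 or 4, that of Cers5 without Del replicate 1 or 4 or Flox replicate 1, 3 or 4, and those of Cers1, Cers4 and Cers5 on signals without scaling. Cers3 was not above background on enough arrays to be tested.

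Genes that use or break down sphingolipids rose more often than they fell, 12 against 2 of 27 tested, with a median of 0.41 (0.34 and 0.45 within the slides, 0.43 with the block). Without Del replicate 3, or without Flox replicate 3, 7 of them were called higher. Gltp, which carries glycolipids between membranes, rose by 1.54 (1.01 to 2.06, adjusted p = 0.000738) and Cerk, which phosphorylates ceramide, by 1.33 (0.99 to 1.66, adjusted p = 9.99e-05). Hexa, a lysosomal subunit that degrades gangliosides, stood at 11.55, 11.42, 11.50 and 11.45 on the 4 Del arrays and 10.40, 10.21, 9.86 and 10.25 on the 4 Flox arrays. It was higher on every Del array, by 1.30 (1.00 to 1.59, adjusted p = 5.26e-05). B4galt5, which makes lactosylceramide, rose by 1.25 (0.85 to 1.65, adjusted p = 0.000469). The 2 members that fell, named after their values were seen, were St3gal5, which makes the ganglioside GM3 from lactosylceramide (difference -0.83), and Smpd2, a sphingomyelinase (-0.63). Neither was called on signals without scaling, nor St3gal5 without Del replicate 1 or 4 or Flox replicate 3 or 4.

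Very long acyl chains for ceramides are made by elongation of fatty acids, and here 4 of 13 genes rose and 1 fell. Hacd2 and Hacd3, dehydratases of the elongation cycle, rose by 0.69 (0.32 to 1.06, adjusted p = 0.0108) and 0.69 (0.32 to 1.06, adjusted p = 0.00995). Elovl1, an elongase of very long chains, rose by 0.80 (0.43 to 1.17, adjusted p = 0.00459) through its brightest probe, but its 3 probes ranged from -2.88 to 0.80 and their mean fell by 0.79 on the log2 scale. Elovl3, an elongase more abundant in male liver, stood at 5.98, 12.25, 12.08 and 10.62 on the 4 Flox arrays and 6.28, 6.57, 4.0 and 6.93 on the 4 Del arrays. Flox replicate 1 lay among the Del arrays, the groups overlapped, and the difference was -4.29 (-7.05 to -1.52, adjusted p = 0.0229), or -5.70 without Flox replicate 1. The call was lost, with a difference between -3.67 and -3.61, without Del replicate 3, Flox replicate 2 or Flox replicate 3.

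Genes of cell division rose together in Del liver. Of 49 mitosis genes tested, 34 rose and 2 fell, with a median of 1.76 (1.59 within slide 1, 1.89 within slide 2, 1.88 with the slide as a block, 0.64 with normexp background correction), beside 16.6% called higher and 18.2% called lower over all genes. This list, like the others, was chosen with earlier results of these data known. Nusap1, which bundles spindle microtubules, stood at 6.13, 5.53, 5.76 and 5.32 on the 4 Del arrays and 1.38, 1.55, 1.39 and 1.89 on the 4 Flox arrays. The Flox arrays lay near the lowest values of the array, none of them well above background, and all 4 Del arrays lay far above them. Such genes have only a lower bound on their fold: the Del mean was set against, on each Flox array, the higher of the gene's own value and the lowest signal among probes well above background (3.01 to 4.09 over the arrays). Nusap1 was at least 5.01-fold higher in Del (adjusted p = 6.23e-05), and Aurkb, the kinase that corrects chromosome attachment, at least 3.21-fold (adjusted p = 9.13e-06). With the 8 mitosis genes of this kind at their bound, the median of the list was 1.35. A probe was kept if it passed the background flag on 4 or more arrays, so these genes entered only through arrays outside Flox. Nusap1 and Aurkb passed on Del and H/A arrays alone, and their rise was partly fixed by this filter. Bub1, Ect2, Melk and Aspm were not kept and are in neither the counts nor the medians. No count of the list under a stricter filter is given here.

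Racgap1, a part of the complex that drives cytokinesis, stood at 7.14, 6.15, 6.74 and 6.02 on the 4 Del arrays and 2.97, 4.40, 1.28 and 1.59 on the 4 Flox arrays. No Flox array reached a Del array, but the Flox arrays spread widely, and the difference was 3.95 (2.55 to 5.35, adjusted p = 0.000962). Tpx2, the activator of Aurora kinase A, showed the same wide spread, with Flox replicate 2 at 4.43, and rose by 4.03 (2.59 to 5.46, adjusted p = 0.000988). Without Flox replicate 2 no Flox array was well above background for either gene, and Racgap1 was then at least 9.37-fold and Tpx2 at least 8.29-fold higher. Racgap1, Tpx2, Cdca5 and Ccnb1 were each well above background on 1 of 4 Flox arrays, and Cdc20 on 3. Cdca5, which holds sister chromatids together, rose by 2.47 (1.86 to 3.07, adjusted p = 8.69e-05). The following 4 genes were named after their values were seen: Cdc20, which starts anaphase, rose by 3.66 (1.65 to 5.68, adjusted p = 0.0119), with 3.02 without Flox replicate 3 and 4.50 without Flox replicate 2, and Kif4, a motor on chromosomes, was at least 3.41-fold higher (adjusted p = 0.000224). Ccnb1, the mitotic cyclin, rose by 3.71 (2.57 to 4.84, adjusted p = 0.00038), and Foxm1, a transcription factor of the mitotic programme, was at least 3.92-fold higher (adjusted p = 0.000382). Kif4 and Foxm1 passed the background flag on Del and H/A arrays alone, so their rise was partly fixed by the filter. The 2 mitosis genes that fell, also named after their values were seen, were the motors Kif11 (difference -0.51) and Kif2c (-0.39), and both calls were lost without Del replicate 3 and without Flox replicate 3 or 4, that of Kif2c also without Del replicate 4 or Flox replicate 1 or 2.

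Of 38 genes of DNA replication tested, 27 rose and 2 fell, with a median of 1.31 (1.12 and 1.41 within the slides, 1.32 with the block, 0.58 with normexp). Uhrf1, which carries DNA methylation through replication, stood at 7.23, 6.61, 5.8 and 6.13 on the 4 Del arrays and 2.85, 1.38, 2.49 and 2.74 on the 4 Flox arrays. It was not well above background on any Flox array and was at least 8.48-fold higher in Del (adjusted p = 9.42e-06). Subunits of the replicative helicase rose by similar amounts: Mcm2 by 2.75 (2.12 to 3.37, adjusted p = 5.26e-05) and Mcm4 by 2.39 (1.84 to 2.94, adjusted p = 5.49e-05), and, named after their values were seen, Mcm6 by 2.76 (1.62 to 3.91, adjusted p = 0.00257) and Mcm5 by 2.40 (1.80 to 3.00, adjusted p = 9.54e-05). Ccnd1, the cyclin that opens the way into the cell cycle, stood at 10.20, 10.17, 10.91 and 10.21 on the 4 Del arrays and 8.73, 7.92, 8.13 and 7.44 on the 4 Flox arrays. Every Del array lay above every Flox array, and it rose by 2.32 (1.79 to 2.84, adjusted p = 5.26e-05). E2f7 (difference -1.01), a repressor of cell cycle genes, and Cdc6 (-0.82), which loads the helicase, fell and were named after their values were seen. Among 22 genes of DNA repair, 7 rose and 2 fell, with a median of 0.05. The counts were 4 and 0 without Del replicate 3 and without Flox replicate 3, 0 fell without Del replicate 4 or Flox replicate 1 and 1 without Flox replicate 4, and on signals without scaling they were 5 and 0. The checkpoint kinase Chek1, well above background on 1 of 4 Flox arrays, rose by 2.82 (2.03 to 3.61, adjusted p = 0.000203), and Rad51ap1, which assists strand exchange, was at least 2.76-fold higher (adjusted p = 9.54e-05). Uhrf1 and Rad51ap1 were kept only through arrays outside Flox, Rad51ap1 through Del and H/A arrays alone. Their rise was partly fixed by the filter.

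The promoters of genes that moved together were read in a window from 250 bases before to 50 bases after the start, on both strands. The CHR element (TTTGAA), through which the DREAM complex is known to hold cell cycle genes down in resting cells, was in 20 of 29 promoters matched to the 34 mitosis genes that rose (69.0%), and in 29 of 41 matched to the 49 tested (70.7%). It was in 18.1% of all 27025 promoters. CHR and CCAAT stood together in 16 of those 29 (55.2%), against 7.1% of all promoters. An E2F element (TTTNGCGC) was in 7 of 20 promoters matched to the replication genes that rose (35.0%), in 9 of 30 matched to those tested (30%) and in 1.4% of all promoters. Members that rose and members tested held the elements at similar shares, and a match is a description of letters, not a bound site. Shown are 3 mitosis genes that hold both CHR and CCAAT and 2 helicase genes with E2F elements, from RefSeq on GRCm38.p6, 5′ to 3′ on the strand of the gene. Capitals mark CHR and CCAAT (or their reverse complements) in the first 3 sequences and the E2F element on either strand in the last 2. Racgap1 is at chr15:99651607-99651906 on the minus strand, Cdc20 at chr4:118437294-118437593 minus, Kif4 at chrX:100625815-100626114 plus, Mcm6 at chr1:128359656-128359955 minus and Mcm5 at chr8:75109259-75109558 plus.
Racgap1: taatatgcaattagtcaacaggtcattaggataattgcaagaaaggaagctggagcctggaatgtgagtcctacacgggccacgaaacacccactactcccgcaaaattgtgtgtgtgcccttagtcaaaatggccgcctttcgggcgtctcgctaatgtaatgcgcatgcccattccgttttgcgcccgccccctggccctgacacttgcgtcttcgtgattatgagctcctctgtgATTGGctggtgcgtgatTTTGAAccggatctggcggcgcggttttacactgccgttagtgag
Cdc20: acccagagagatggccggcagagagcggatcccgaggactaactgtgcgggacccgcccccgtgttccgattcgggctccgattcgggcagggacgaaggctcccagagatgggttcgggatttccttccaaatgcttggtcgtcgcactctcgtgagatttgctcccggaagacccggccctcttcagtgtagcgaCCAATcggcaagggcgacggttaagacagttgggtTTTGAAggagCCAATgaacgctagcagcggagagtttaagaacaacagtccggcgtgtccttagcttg
Kif4: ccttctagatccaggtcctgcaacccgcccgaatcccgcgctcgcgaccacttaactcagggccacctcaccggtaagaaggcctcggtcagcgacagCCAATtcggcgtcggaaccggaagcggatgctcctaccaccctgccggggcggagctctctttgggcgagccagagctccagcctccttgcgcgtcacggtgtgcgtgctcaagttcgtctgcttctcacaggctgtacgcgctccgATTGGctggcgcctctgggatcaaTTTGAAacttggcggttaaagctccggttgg
Mcm6: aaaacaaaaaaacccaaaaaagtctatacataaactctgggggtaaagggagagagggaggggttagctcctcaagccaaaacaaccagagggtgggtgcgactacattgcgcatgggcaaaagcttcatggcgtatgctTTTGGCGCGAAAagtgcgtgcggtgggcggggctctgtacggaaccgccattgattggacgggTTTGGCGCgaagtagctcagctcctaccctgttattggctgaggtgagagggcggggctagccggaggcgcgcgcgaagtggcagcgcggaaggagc
Mcm5: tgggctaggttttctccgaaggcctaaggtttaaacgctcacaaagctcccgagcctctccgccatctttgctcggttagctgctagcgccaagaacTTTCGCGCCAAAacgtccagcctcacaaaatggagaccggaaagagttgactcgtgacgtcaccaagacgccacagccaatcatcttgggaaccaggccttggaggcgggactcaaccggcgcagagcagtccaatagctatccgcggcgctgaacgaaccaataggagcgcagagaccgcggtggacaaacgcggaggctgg

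Genes of the immediate stress response rose. Atf3, a stress-induced transcription factor, stood at 7.28, 7.30, 7.80 and 7.88 on the 4 Del arrays and 3.22, 2.33, 1.69 and 1.20 on the 4 Flox arrays. No Flox array was well above background, all Del arrays were, and it was at least 18.5-fold higher (adjusted p = 7.19e-06). Atf3 passed the background flag on Del and H/A arrays alone, so its rise was partly fixed by the filter. Of 19 AP-1 and other early-response genes 11 rose and 1 fell, with a median of 1.19 (1.05 and 1.33 within the slides, 1.19 with the block). Jun, the core AP-1 subunit, stood at 11.27, 11.10, 11 and 11.08 on the 4 Del arrays and 8.42, 8.87, 8.44 and 8.62 on the 4 Flox arrays. The spread within each group was small against the gap, and it rose by 2.53 (2.20 to 2.85, adjusted p = 3.79e-07). Its relative Jund rose by 1.80 (1.5 to 2.11, adjusted p = 5.55e-06) and the early zinc finger factor Klf6 by 3.03 (2.55 to 3.51, adjusted p = 3.56e-06). The member that fell, Csrnp1 (difference -1.52), was named after its values were seen, and its call was lost on leaving out any 1 of the 8 arrays other than Flox replicate 2. An AP-1 element (TGANTCA) was in 0 of 10 matched promoters of those that rose and in 7.9% of all promoters, which says only that the letters are not in this window.

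Targets of NRF2, which switches on antioxidant and detoxifying genes, rose in 18 of 26 cases and fell in 2, with a median of 1.15 (1.19 and 1.06 within the slides, 1.18 with the block). Gsta1, a glutathione transferase, stood at 12.73, 11.90, 12.48 and 10.86 on the 4 Del arrays and 9.63, 7.40, 7.34 and 7.15 on the 4 Flox arrays. Flox replicate 1 was more than 2 above the other Flox arrays but below every Del array, and the gene rose by 4.12 (2.83 to 5.41, adjusted p = 0.00043). Gsta2 rose by 4.03 (2.88 to 5.19, adjusted p = 0.000231), and since Gsta1 and Gsta2 are near-identical, their probes may share transcripts. Srxn1, which repairs oxidised peroxiredoxins, stood at 12.74, 11.07, 11.74 and 10.85 on the 4 Del arrays and 8.76, 8.98, 8.64 and 8.66 on the 4 Flox arrays. It rose by 2.84 (2.03 to 3.65, adjusted p = 0.000225) with no overlap. Ugdh, which makes the sugar for glucuronidation, rose by 2.08 (1.5 to 2.66, adjusted p = 0.000205) and Hmox1, heme oxygenase, by 2.23 (1.45 to 3.00, adjusted p = 0.000852). Nqo1, a quinone reductase named after its values were seen, rose by 2.68 (1.80 to 3.55, adjusted p = 0.000555). Of 22 glutathione transferases, 6 of which belong to both lists, 9 rose and 1 fell, with a median of 0.19. The NRF2 targets that fell, Me1 (difference -0.91) and Cat (-0.44), make NADPH and remove peroxide and were named after their values were seen. The call of Cat was lost on leaving out any 1 array other than Del replicates 2 and 4. The antioxidant element (TGACNNNGC) was in 4 of 13 matched promoters of the NRF2 targets that rose (30.8%) and in 12.5% of all promoters.

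Of 21 p53 targets 11 rose and 1 fell, with a median of 0.73 (0.60 and 0.59 within the slides, 0.73 with the block, 0.40 with 2 members at their bound). Phlda3, an inhibitor of Akt signalling, stood at 7.17, 6.70, 7.49 and 6.16 on the 4 Del arrays and 4.22, 3.94, 3.78 and 4.50 on the 4 Flox arrays. It rose by 2.77 (2.07 to 3.47, adjusted p = 9.99e-05) without overlap. Tnfrsf10b, the death receptor for TRAIL, was at least 4.34-fold higher (adjusted p = 0.000412). It was kept only through arrays outside Flox, so its rise was partly fixed by the filter. Cdkn1a, the cell cycle inhibitor p21, was named after its values were seen and stood at 11.69, 10.96, 10.36 and 9.55 on the 4 Del arrays and 6.94, 8.38, 8.29 and 6.97 on the 4 Flox arrays. Both groups spread by more than 1, and the difference was 3.00 (1.20 to 4.79, adjusted p = 0.017). Fas, a death receptor, fell (difference -0.48) and was named after its values were seen, its 2 probes differed in sign (-0.48 and 0.48), and its call was lost without Del replicate 3.

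**Figure D2:**
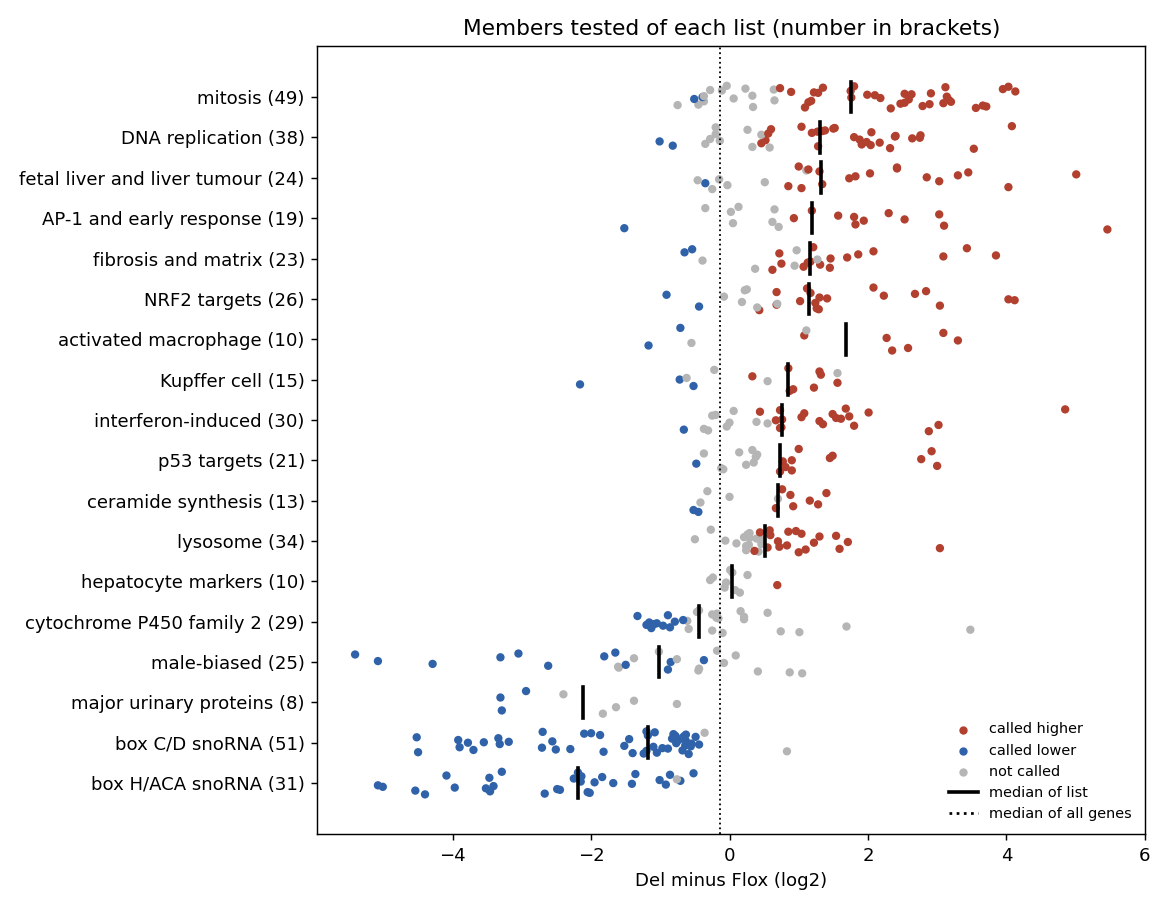
Difference between Del and Flox means (log2) of each tested member of 18 gene lists, 1 point per gene, red for called higher, blue for called lower and grey for not called, with the list median as a bar and the median of all genes tested (-0.14) as a dotted line. Medians lie farthest to the right in mitosis (1.76) and activated macrophage (1.69) and farthest to the left in box H/ACA snoRNA (-2.19) and major urinary proteins (-2.12), while hepatocyte markers lie near 0 (0.03).

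Genes known from fetal liver and liver tumours rose in 17 of 24 cases and fell in 1, with a median of 1.32 (1.25 and 1.42 within the slides, 1.40 with the block). Ly6d, a surface protein, stood at 11.41, 10.46, 12.27 and 10.54 on the 4 Del arrays and 6.41, 5.96, 6.10 and 6.17 on the 4 Flox arrays. The highest Flox array lay about 4 below the lowest Del array, and it rose by 5.01 (4.26 to 5.76, adjusted p = 2.1e-06). Anxa2, an annexin that binds membranes and plasminogen activator, stood at 12.52, 11.69, 12.59 and 11.24 on the 4 Del arrays and 8.35, 7.97, 7.69 and 7.90 on the 4 Flox arrays. It rose by 4.03 (3.34 to 4.73, adjusted p = 6.5e-06), and the galectins Lgals3 and Lgals1 rose by 3.30 (2.57 to 4.03, adjusted p = 4.42e-05) and 1.82 (1.41 to 2.23, adjusted p = 5.26e-05). Dlk1, a fetal liver protein, fell (difference -0.35, named after its values were seen), and that call was lost without Del replicate 3 or Flox replicate 1, 3 or 4.

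Krt8, the keratin of simple epithelia that hepatocytes make, stood at 14.84, 14.12, 14.79 and 13.48 on the 4 Del arrays and 11.39, 11.18, 11.07 and 11.09 on the 4 Flox arrays. It was higher on all Del arrays, by 3.12 (2.46 to 3.78, adjusted p = 2.92e-05). Among 25 junction genes, 11 rose and 2 fell, with a median of 0.61 (0.49 and 0.63 within the slides, 0.61 with the block). Cdh1, E-cadherin, stood at 9.96, 9.30, 10.22 and 9.47 on the 4 Del arrays and 6.51, 8.04, 6.90 and 6.92 on the 4 Flox arrays. It rose by 2.64 (1.79 to 3.50, adjusted p = 0.000514), with Flox replicate 2 the nearest to the Del arrays. The tight junction protein F11r rose by 1.45 (1.1 to 1.80, adjusted p = 7.24e-05) and Ctnnb1, beta-catenin, by 1.13 (0.78 to 1.48, adjusted p = 0.000432). Cldn4, a claudin, stood at 8.12, 8.0, 7.43 and 7.65 on the 4 Del arrays and 10.95, 10.26, 10.04 and 10.30 on the 4 Flox arrays. It went the other way from the list, with a difference of -2.59 (-3.61 to -1.57, adjusted p = 0.00187), and Cgn also fell (-0.47, its 2 probes differing in sign), a call lost without Del replicate 3 or 4 or Flox replicate 1 or 4. Both were named after their values were seen.

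Other large rises belonged to no list or to several. Gipc2, an adaptor of membrane receptors, stood at 8.61, 8.35, 9.98 and 6.42 on the 4 Del arrays and 3.07, 3.71, 3.25 and 3.31 on the 4 Flox arrays. No Flox array was well above background, and the gene was at least 29.6-fold higher in Del (adjusted p = 0.00057), or at least 46.2-fold without Del replicate 4, the lowest of the Del arrays. Slpi, a secreted protease inhibitor, rose by 4.53 (3.28 to 5.78, adjusted p = 0.000188) and Fndc10 by 4.30 (3.44 to 5.17, adjusted p = 2.12e-05), well above background on 2 and 1 of 4 Flox arrays. Rragd, a GTPase that signals nutrients to mTORC1 at lysosomes, was at least 5.26-fold higher (adjusted p = 2.89e-05). Gipc2 and Rragd were kept only through arrays outside Flox, Rragd through Del and H/A arrays alone. Their rise was partly fixed by the filter. Of 34 lysosome genes 19 rose and 0 fell, with a median of 0.51 (0.47 and 0.71 within the slides, 0.57 with the block), and 2 were lower at an unadjusted p under 0.05 in limma. Cd63, a membrane protein of late endosomes, stood at 11.43, 10.78, 12.37 and 10.92 on the 4 Del arrays and 9.40, 8.27, 7.70 and 7.98 on the 4 Flox arrays. It rose by 3.04 (2.18 to 3.90, adjusted p = 0.000221), and Psap, the precursor of the sphingolipid activator proteins, by 0.96 (0.65 to 1.26, adjusted p = 0.000469).

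Of 23 genes of fibrosis and matrix 16 rose and 2 fell, with a median of 1.17 (0.82 and 1.42 within the slides, 1.21 with the block). Without Del replicate 3, 10 were called higher. Mmp13, a collagenase, stood at 5.56, 5.18, 5.57 and 4.16 on the 4 Del arrays and 1.29, 1.29, 1.22 and 1.24 on the 4 Flox arrays. It was at least 3.38-fold higher (adjusted p = 0.000484), and Mmp12, the macrophage elastase, rose by 3.09 (2.23 to 3.94, adjusted p = 0.000188), well above background on 3 of 4 Flox arrays. Pdgfa, a growth factor for stellate cells, stood at 8.66, 8.34, 9.16 and 8.89 on the 4 Del arrays and 6.63, 6.75, 6.57 and 6.77 on the 4 Flox arrays. It rose by 2.08 (1.68 to 2.48, adjusted p = 1.23e-05), and Col4a1, of basement membranes, by 1.31 (0.88 to 1.75, adjusted p = 0.000592). Timp1, an inhibitor of matrix proteases named after its values were seen, was at least 7.9-fold higher (adjusted p = 0.000671). Mmp13 and Timp1 were kept only through arrays outside Flox, Mmp13 through Del and H/A arrays alone. Their rise was partly fixed by the filter. Col1a1, the main fibrillar collagen, rose by 1.45 (0.58 to 2.31, adjusted p = 0.0168), but not without Del replicate 3 (adjusted p = 0.0631). Mmp9 (difference -0.65) and Tgfb1 (-0.54), the members that fell, were named after their values were seen and also lost their calls without Del replicate 3, and Mmp9 without Flox replicate 1. Markers of stellate cells and fibroblasts share Col1a1, Col1a2, Col3a1 and Acta2 with this list, so the lists are not independent. Of 12 such markers 5 rose and 0 fell (6 and 0 at an unadjusted p under 0.05 in limma), and 2 rose without Del replicate 3. Outside the fibrosis list Dcn rose by 0.51, while Lrat, Lhx2, Hand2 and Des were not called. The summed level of the markers was 13.37 to 13.75 on the Del arrays and 13.11 to 13.24 on the Flox arrays. The part of these cells in the result was not tested.

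Interferon-induced genes rose in 20 of 30 cases and fell in 1, with a median of 0.76 (0.72 and 0.89 within the slides, 0.75 with the block). Ubd, a ubiquitin-like protein, stood at 8.29, 7.31, 8.58 and 7.60 on the 4 Del arrays and 3.84, 2.49, 2.04 and 4.02 on the 4 Flox arrays. It was well above background on 2 of 4 Flox arrays and rose by 4.85 (3.49 to 6.2, adjusted p = 0.000201) without overlap. Usp18, which removes a ubiquitin-like modifier, rose by 1.68 (1.07 to 2.28, adjusted p = 0.00107), the antiviral enzyme Rsad2 by 2.01 (1.16 to 2.85, adjusted p = 0.00283), and Oasl2 by 1.49 (0.91 to 2.06, adjusted p = 0.00159). Cxcl10, a chemokine of lymphocytes, stood at 4.61, 5.01, 6.36 and 6.95 on the 4 Del arrays and 4.12, 3.43, 2.29 and 1.57 on the 4 Flox arrays. The lowest Del array was 0.49 above the highest Flox array, the only Flox array well above background, and it rose by 2.88 (1.59 to 4.17, adjusted p = 0.00393), while its relative Cxcl9 fell (difference -0.66, named after its values were seen). Over 25 chemokines 6 rose and 5 fell, with a median of -0.26. Without Del replicate 3 or Flox replicate 1 only 2 fell, without Flox replicate 3 only 3, and on signals without scaling 0. Ccl6, made by myeloid cells, rose by 2.60 (1.85 to 3.36, adjusted p = 0.000253).

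Genes of TNF signalling and cell death rose in 18 of 31 cases and fell in 2, with a median of 0.51 (0.37 and 0.66 within the slides, 0.50 with the block). Without Del replicate 3, 12 were called higher. Tnfrsf12a, the receptor of TWEAK, stood at 10.05, 9.30, 10.46 and 9.50 on the 4 Del arrays and 7.35, 7.30, 6.84 and 6.84 on the 4 Flox arrays. It rose by 2.74 (2.09 to 3.40, adjusted p = 7.24e-05). Mlkl, the executor of necroptosis, rose by 2.12 (1.39 to 2.84, adjusted p = 0.000753) and the NF-kappaB subunit Nfkb2 by 1.64 (1.18 to 2.11, adjusted p = 0.000209). The members that fell were Fas, given above, and Bcl2l11, a trigger of apoptosis (difference -0.53, named after its values were seen, its 4 probes ranging from -0.53 to 0.58), whose call was lost on leaving out any 1 array other than Del replicate 1. Of 24 acute-phase genes 5 rose and 4 fell. Without Del replicate 3 the counts were 3 and 0, leaving out any 1 of the other arrays except Del replicate 2 gave 0 to 2 falls, and on signals without scaling they were 4 and 1. Lcn2, an iron-binding protein of inflammation, rose by 2.85 (1.44 to 4.25, adjusted p = 0.00678), and Il1rn, the antagonist of interleukin 1, by 2.86 (1.79 to 3.93, adjusted p = 0.0014), or 3.53 without Flox replicate 1.

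Macrophage markers rose more often than they fell. Of 15 Kupffer cell markers tested 8 rose and 3 fell, with a median of 0.85 (0.21 within slide 1, 1.15 within slide 2, 0.87 with the block), and their summed level was 13.35 to 13.51 on the Del arrays and 12.42 to 12.95 on the Flox arrays. Cd5l, a secreted macrophage protein, stood at 9.75, 10.08, 9.87 and 9.90 on the 4 Del arrays and 8.79, 8.33, 8.13 and 8.10 on the 4 Flox arrays. It rose by 1.56 (1.07 to 2.06, adjusted p = 0.000446), and C1qb, a chain of complement C1q, by 1.22 (0.64 to 1.80, adjusted p = 0.00556). Cd163, the scavenger receptor for haemoglobin, stood at 6.58, 6.33, 7.35 and 7.24 on the 4 Del arrays and 9.25, 8.98, 8.66 and 9.25 on the 4 Flox arrays. It fell, with a difference of -2.16 (-2.76 to -1.56, adjusted p = 0.000199), and Csf1r (-0.72) and C1qc (-0.52) fell as well. The call of Csf1r was lost without Del replicate 1 or 3 or Flox replicate 3 or 4. Clec4f, the receptor that defines mouse Kupffer cells, differed by 0.55 (0.11 to 1.00, adjusted p = 0.0517) and was not called. Of 10 markers of activated macrophages 6 rose and 2 fell, with a median of 1.69, or 0.96 with normexp background correction. Among these 10, Mmp12, Lgals3, Lpl and Spp1 also belong to other lists given here, Spp1 to the cholangiocyte markers. The summed level of the 10 markers was 12.09 to 12.74 on the Del arrays and 11.60 to 11.81 on the Flox arrays. Cd14, a receptor for endotoxin, rose by 2.35 (1.28 to 3.41, adjusted p = 0.00435), while Trem2, a marker of lipid-laden macrophages, fell (difference -0.71), a call lost without Del replicate 3 or 4 or Flox replicate 1 or 3. The part of macrophages in the lists above was not tested.

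Hepatocyte markers showed the tissue to be liver on all 8 arrays: Alb, albumin, stood at 16.30, 16.39, 16.18 and 16.30 on the 4 Del arrays and 16.30, 16.18, 16.10 and 15.99 on the 4 Flox arrays. The groups overlapped, 1 of 10 markers rose (Cps1, of the urea cycle, by 0.69 (0.29 to 1.08, adjusted p = 0.0146)) and 0 fell, and the summed level ranged from 18.53 to 18.60 over Del arrays and from 18.46 to 18.60 over Flox arrays. The brightest probes repeated the same values, as Apoa1 at 16.04 on all 4 Flox arrays and Alb at 16.30 in both groups. The deposited scaling may hold them there, so near-equal sums do not show that hepatocyte RNA was unchanged. Of 7 cholangiocyte markers 1 rose and 1 fell, with a summed level of 11.89 to 12.15 over Del arrays against 12.41 to 12.89 over Flox arrays. Of 12 lymphocyte markers 0 rose and 1 fell (9.65 to 9.97 against 10.05 to 10.21), of 9 neutrophil markers 1 rose and 0 fell (12.15 to 12.66 against 12.62 to 12.88), and of 12 sinusoidal endothelial markers 0 rose and 1 fell (11.99 to 12.43 against 12.28 to 12.34). Of 6 erythroid markers 0 rose and 2 fell (9.54 to 10.86 against 9.91 to 11.69), of 7 pancreatic markers 0 rose and 2 fell (9.01 to 9.18 against 9.25 to 9.59), and of 5 adipocyte markers 1 rose and 1 fell (8.19 to 8.77 against 8.97 to 9.31). At an unadjusted p under 0.05, the directions with 0 calls in limma held 0 hepatocyte, 2 lymphocyte, 3 neutrophil, 1 endothelial, 1 erythroid and 0 pancreatic markers. The T cell marker Cd3g, the natural killer cell marker Klrb1c and the adipocyte hormones Adipoq and Lep were not above background on enough arrays to be tested.

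**Figure D3:**
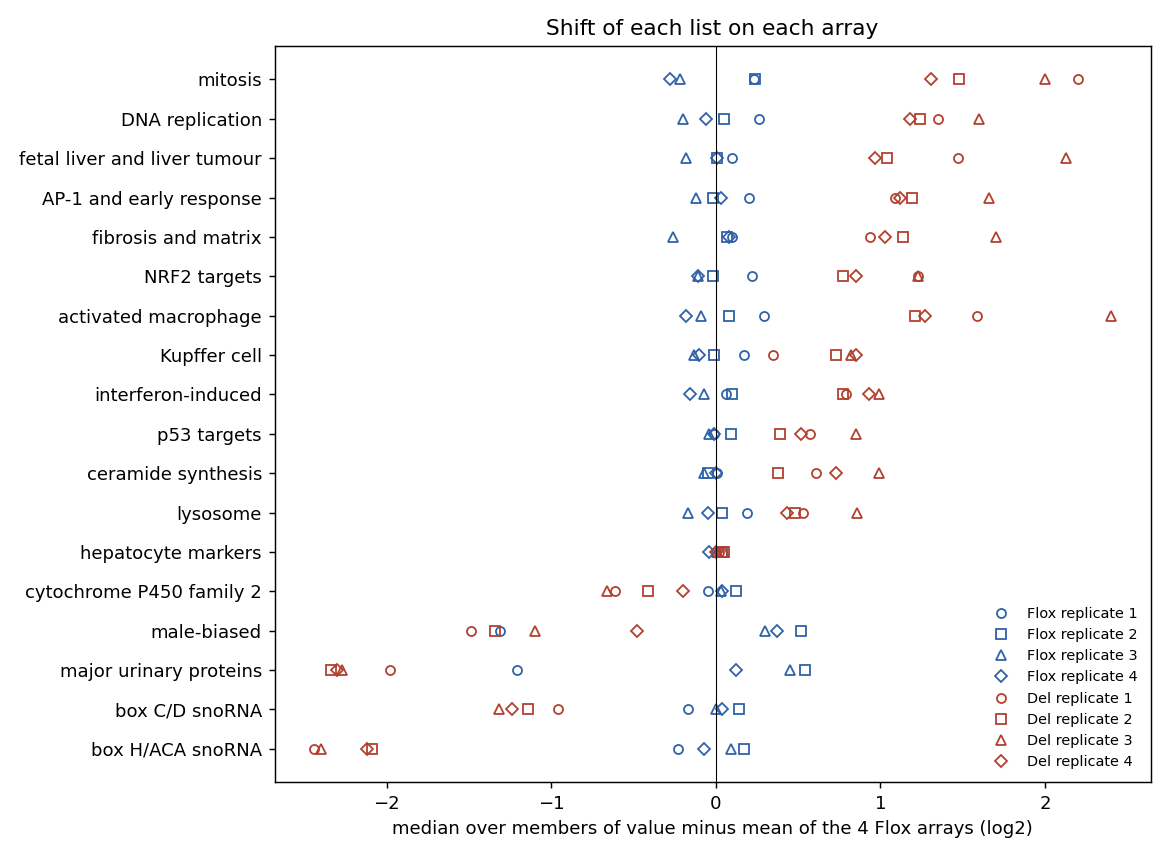
Median over the members of each list of the value on an array minus the mean of the 4 Flox arrays (log2), with red symbols for Del and blue for Flox, 1 symbol shape per replicate. In the male-biased list Flox replicate 1 (-1.31) lies among the Del arrays (-1.49 to -0.48), and in major urinary proteins at -1.21, while the other Flox arrays lie at 0.12 or above in both lists.

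Genes of lipid metabolism were called in both directions, beside 16.6% called higher and 18.2% called lower over all genes. Of 20 genes of lipid uptake and lipid droplets 7 rose and 4 fell (2 without Del replicate 3 or Flox replicate 1), with a median of 0.42 (0.23 and 0.33 within the slides, 0.46 with the block). Lpl, lipoprotein lipase, which adult hepatocytes hardly make, stood at 10.76, 11.09, 10.59 and 10.47 on the 4 Del arrays and 8.94, 8.63, 8.20 and 8.05 on the 4 Flox arrays. It rose by 2.27 (1.75 to 2.80, adjusted p = 5.58e-05) without overlap. The coats of lipid droplets Plin2 and Plin3 rose by 1.75 (1.11 to 2.38, adjusted p = 0.00109) and 1.37 (1.00 to 1.74, adjusted p = 0.000163). Cd36, a fatty acid transporter, rose by 1.08 (0.75 to 1.42, adjusted p = 0.000397) through its brightest probe, while its 6 probes ranged from -0.76 to 1.79. Of 19 genes of fatty acid synthesis 3 rose, near the share over all genes, and 6 fell (3 without Del replicate 3), with a median of -0.23. Thrsp, a lipogenic protein of liver, stood at 8.79, 10.27, 9.39 and 11.90 on the 4 Del arrays and 12.35, 13.01, 12.55 and 13.36 on the 4 Flox arrays. The Del arrays spread by about 3, and the difference was -2.73 (-3.91 to -1.55, adjusted p = 0.00325), or -3.33 without Del replicate 4. Acacb, an acetyl-CoA carboxylase, fell, with a difference of -1.32 (-1.71 to -0.92, adjusted p = 0.000333), while Scd2, a desaturase, rose by 2.32 (1.68 to 2.95, adjusted p = 0.000177). Of 21 genes of cholesterol synthesis 3 rose and 2 fell, neither above the share over all genes. Idi1, an isomerase of the mevalonate pathway, rose by 0.88 (0.45 to 1.32, adjusted p = 0.0067). Fdps fell (difference -0.61), a call lost without Del replicate 3. Tm7sf2 (-0.47), named after its values were seen, fell too, and lost its call on leaving out any 1 array other than Del replicate 4 and Flox replicate 2. Of 24 genes of fatty acid oxidation 1 rose and 2 fell, both below the shares over all genes, with a median of -0.06.

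Genes of bile acid synthesis and transport went both ways. Of 24 genes of bile acids 7 rose and 8 fell (5 without Del replicate 1 or Flox replicate 4), with a median of -0.23 (-0.29 and -0.22 within the slides, -0.27 with the block). Slco1a6, an uptake transporter, stood at 1.43, 2.56, 1.34 and 4.74 on the 4 Del arrays and 5.17, 7.36, 7.21 and 6.82 on the 4 Flox arrays. It fell, with a difference of -4.12 (-5.84 to -2.41, adjusted p = 0.00261). Del replicate 4 was the only Del array well above background, and without it the gene was at least 8.42-fold lower in Del. Slc10a1, the sodium-dependent bile acid importer, stood at 10.54, 11.18, 10.91 and 11.73 on the 4 Del arrays and 12.24, 12.29, 12.25 and 12.45 on the 4 Flox arrays. It fell, with a difference of -1.22 (-1.68 to -0.75, adjusted p = 0.00152), and the uptake transporter Slco1a4 with -1.76 (-2.36 to -1.16, adjusted p = 0.000767). Slc51b, a subunit of the basolateral exporter, stood at 5.60, 4.79, 5.62 and 4.52 on the 4 Del arrays and 3.53, 1.39, 1.29 and 1.64 on the 4 Flox arrays. It was well above background on 1 of 4 Flox arrays and rose by 3.17 (1.96 to 4.38, adjusted p = 0.00151), and the phospholipid exporter Abcb4 by 0.90 (0.61 to 1.18, adjusted p = 0.000478). Abcb1b, a drug exporter named after its values were seen, stood at 7.12, 1.83, 7.16 and 6.52 on the 4 Del arrays and 3.66, 1.24, 1.21 and 1.24 on the 4 Flox arrays. Del replicate 2 lay among the Flox arrays, the groups overlapped, and the difference was 3.82 (1.90 to 5.74, adjusted p = 0.00745), or 5.10 without Del replicate 2. Flox replicate 1 was the only Flox array well above background, and without it the gene was at least 4.9-fold higher.

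Genes that male mouse liver expresses more highly than female liver, under the pulsed growth hormone of males, were lower in Del, and here Flox replicate 1 weighed heavily. Of 25 male-biased genes tested 0 rose and 12 fell, with a median of -1.02 (-1.05 within slide 1, -1.31 within slide 2, -1.16 with the block), beside 18.2% of all genes called lower. At an unadjusted p under 0.05 in limma 0 were higher. Without Flox replicate 1 the count was 14 and the median -1.36, and without Del replicate 3 the count was 4 and without Flox replicate 3 it was 6, while on signals without scaling it was 7. Hsd3b5, a steroid-converting enzyme of male liver, stood at 6.09, 11.76, 11.78 and 11.27 on the 4 Flox arrays and 4.46, 5.28, 5.05 and 5.79 on the 4 Del arrays. Flox replicate 1 lay 5.18 below the next Flox array and 0.30 above the highest Del array. The difference was -5.08 (-7.07 to -3.09, adjusted p = 0.00184), and -6.46 without Flox replicate 1. Cyp7b1, which hydroxylates oxysterols, stood at 6.87, 10.53, 11.08 and 10.80 on the 4 Flox arrays and 7.16, 7.24, 7.30 and 7.10 on the 4 Del arrays. There Flox replicate 1 lay below all Del arrays, and the difference was -2.62 (-3.99 to -1.26, adjusted p = 0.00899), or -3.60 without it. The pseudogene Serpina4-ps1 differed by -5.41 (-8.09 to -2.72, adjusted p = 0.007), or -7.04 without Flox replicate 1, which at 6.71 lay among the Del arrays, and -4.67 without Flox replicate 3, and its probe may share transcripts of related serpin genes. Nudt7, a peroxisomal hydrolase, fell, with a difference of -1.81 (-2.74 to -0.88, adjusted p = 0.0084).

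Major urinary proteins, the pheromone carriers secreted mainly by male liver, fell in 3 of 8 cases and rose in 0, with a median of -2.12 (-1.54 and -2.60 within the slides, -2.27 with the block). Mup3 stood at 12.52, 14.55, 14.21 and 14.36 on the 4 Flox arrays and 9.91, 11.33, 9.80 and 11.37 on the 4 Del arrays. The groups did not overlap, and the difference was -3.31 (-5.22 to -1.40, adjusted p = 0.0146), a call lost without Del replicate 3 (adjusted p = 0.0511). Mup14 stood at 12.69, 15.18, 15.06 and 15.03 on the 4 Flox arrays and 11.82, 10.80, 11.32 and 10.88 on the 4 Del arrays, with a difference of -3.29 (-5.83 to -0.74, adjusted p = 0.045), or -3.89 without Flox replicate 1. Its call was lost on leaving out any 1 of the other 7 arrays. At an unadjusted p under 0.05, 0 were higher. Without Del replicate 3 limma called 0 of the 8, without Flox replicate 1 it called 2, and without any 1 of the other arrays 1, and the probes of this family may share transcripts of its near-identical genes. Of 28 female-biased genes 7 rose and 6 fell, with a median of 0.35, and 2 fell without Del replicate 3 and 3 without Flox replicate 1 or 3. Of 16 genes of the growth hormone axis 1 rose and 4 fell (2 without Del replicate 3 or 4 or Flox replicate 2): Ghr, the growth hormone receptor, fell, with a difference of -0.83 (-1.29 to -0.36, adjusted p = 0.013), and Igfbp1, a binding protein of insulin-like growth factors, rose by 2.13 (1.39 to 2.87, adjusted p = 0.000851).

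Cytochrome P450 enzymes of family 2, which oxidise drugs and steroids, fell in 11 of 29 cases and rose in 0, with a median of -0.44 (-0.60 and -0.37 within the slides, -0.50 with the block). At an unadjusted p under 0.05 in limma 2 were higher. On signals without scaling 4 fell and 0 rose, without Del replicate 3, 7 fell and 0 rose, and without Flox replicate 1, 10 fell and 3 rose. Cyp2c29 stood at 12.51, 12.82, 12.10 and 12.31 on the 4 Del arrays and 13.37, 13.87, 13.53 and 13.47 on the 4 Flox arrays. All Del arrays lay below all Flox arrays, and the difference was -1.13 (-1.51 to -0.74, adjusted p = 0.000707). Cyp2c40 fell, with a difference of -1.20 (-1.65 to -0.74, adjusted p = 0.00146), and Cyp2c37 with -0.86 (-1.17 to -0.54, adjusted p = 0.00125), where near-identical Cyp2c genes may share probes. Sult2a8, a sulfotransferase, fell, with a difference of -2.36 (-3.48 to -1.25, adjusted p = 0.00544). In its family 3 of 15 were called lower, near the 18.2% called lower over all genes.

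The remaining lists are given by their counts, beside 16.6% called higher and 18.2% called lower over all genes. Of 29 genes of the unfolded protein and integrated stress response 5 rose (8 without Flox replicate 2) and 1 fell, of 16 genes of iron handling and metallothioneins 4 and 2, and of 29 genes of glucose and insulin signalling 7 and 2. Of 16 clock genes 1 rose and 0 fell (3 lower at an unadjusted p under 0.05 in limma), of 19 pericentral genes 2 and 4, of 25 periportal genes 4 and 8, and of 40 respiratory chain genes 2 and 6. Pericentral falls numbered 1 without Del replicate 1 or 3 or Flox replicate 3 and 2 without Flox replicate 2 or 4. Periportal falls numbered 3 without Del replicate 1 or 3 and 4 without Flox replicate 4, and those of the respiratory chain 3 without Del replicate 1 or Flox replicate 1, 2 or 3. Of 19 UDP-glucuronosyltransferases 0 rose (1 at an unadjusted p under 0.05) and 4 fell, of 37 serpins 4 and 11, and of 26 keratins 3 and 7. Of the glucuronosyltransferases 1 fell without Del replicate 3 and 2 without Flox replicate 1, 3 or 4, and 2 serpins rose without Del replicate 3. Keratins called lower numbered 0 without Del replicate 3, without Flox replicate 1 and on signals without scaling, 1 without Del replicate 4, and 2 and 4 without Flox replicates 3 and 4.

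Small nucleolar RNAs (snoRNAs) were lower in Del with hardly an exception. They guide the modification of ribosomal RNA, box H/ACA members for pseudouridine and box C/D members for ribose methylation, and most are cut from introns of other genes. Of 31 box H/ACA RNAs tested 30 fell and 0 rose, with a median of -2.19 (-2.48 within slide 1, -2.16 within slide 2, -2.25 with the block). Of 51 box C/D RNAs 49 fell and 0 rose, with a median of -1.18 (-0.96, -1.22 and -1.08). At an unadjusted p under 0.05 in limma, 0 and 1 were higher. On signals without scaling 28 and 40 fell, and with normexp background correction the medians were -1.08 and -0.59. Snora30 stood at 10.51, 11.24, 10.62 and 10.17 on the 4 Flox arrays and 5.54, 5.70, 5.16 and 5.82 on the 4 Del arrays. The arrays within a group agreed closely against the gap, and the difference was -5.08 (-6.64 to -3.52, adjusted p = 0.000382). Snord69 stood at 8.24, 8.56, 8.50 and 8.40 on the 4 Flox arrays and 4.27, 3.69, 3.61 and 4.03 on the 4 Del arrays, with a difference of -4.52 (-5.64 to -3.41, adjusted p = 8.78e-05). Snora24 stood at 9.58, 9.17, 9.08 and 9.28 on the 4 Flox arrays and 7.10, 6.54, 6.73 and 6.77 on the 4 Del arrays, and it fell, with a difference of -2.49 (-2.93 to -2.06, adjusted p = 7.19e-06).

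Of the 82 snoRNAs tested 14 were not well above background on any Del array, and have only a bound. These 14 were kept only through arrays outside Del, so their fall was partly fixed by the filter. With these at their bound the medians were -2.14 for box H/ACA and -1.08 for box C/D RNAs. Snora21 was at least 19.5-fold lower in Del (adjusted p = 0.000514), Snora2b at least 7.83-fold (adjusted p = 0.000851), Snord111 at least 6.54-fold (adjusted p = 0.000531) and Snora15 at least 6.38-fold (adjusted p = 0.00109). Snord58b was at least 3.47-fold lower (adjusted p = 8.69e-05). Snord99 lay near the median of the box C/D members, at -1.20 (-1.47 to -0.93, adjusted p = 5.26e-05). Of 7 Cajal body RNAs, which guide the modification of spliceosomal RNA, 4 fell and 0 rose (5 and 0 at an unadjusted p under 0.05), and Scarna6 fell the most, with a difference of -2.54 (-3.45 to -1.62, adjusted p = 0.00107).

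None of the tested genes that hold these snoRNAs was called lower. Of the 82 snoRNAs tested 79 fell, and 64 of these lie in 1 tested gene each by the reference annotation, 48 distinct hosts in all. The other snoRNAs that fell, among them Snora30 and Snora2b, had no single tested host and are left out here. The strand was not used in this match. Of the 48 hosts 0 were called lower, 14 were called higher and 34 were not called, with a median difference of 0.30. The 39 coding hosts, of which 12 rose, and the 9 non-coding hosts, of which 2 rose, each had 0 called lower, and 0 of the 48 were lower at an unadjusted p under 0.05 in limma. The following hosts were named after their values were seen. Snora21 was at least 19.5-fold lower, while its host Rpl23, a ribosomal protein gene, differed by 0.53 (adjusted p = 0.0324), a call lost without Del replicate 3 or 4 or Flox replicate 1, 2 or 3. Snord69 differed by -4.52 and its host Gnl3, a nucleolar GTPase, by -0.02 (adjusted p = 0.929). Snord111 was at least 6.54-fold lower, and Sf3b3, a splicing factor, differed by 0.56 (adjusted p = 0.00697). Snora15 was at least 6.38-fold lower, and Cct6a, a chaperonin subunit, differed by 0.49 (adjusted p = 0.015), which was not called without Del replicate 3. Snora28 differed by -3.97 and Eif5, a translation initiation factor, by 0.12 (adjusted p = 0.576). Snord22 differed by -3.90 and Snhg1, a non-coding host, by 0.23 (adjusted p = 0.363).

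**Figure D4:**
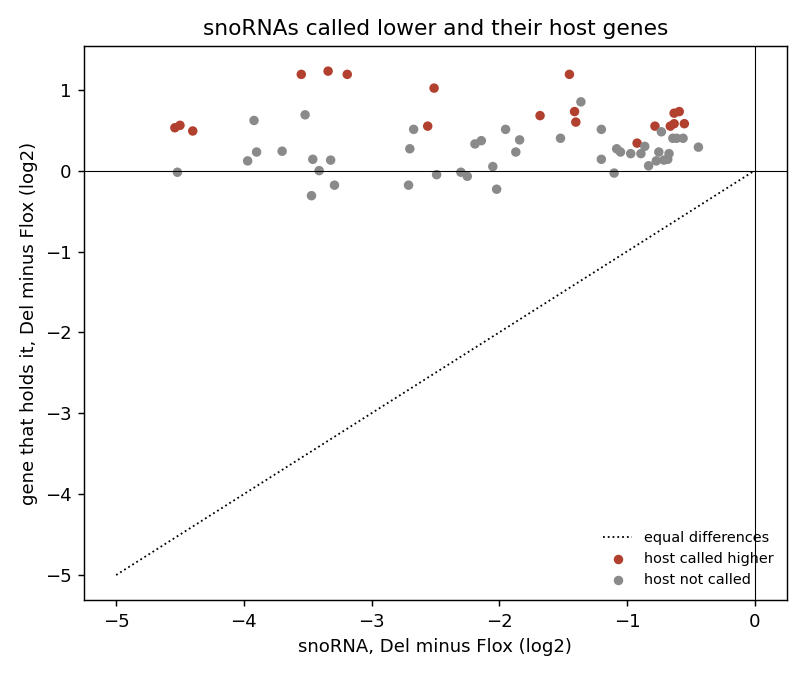
Difference between Del and Flox means (log2) of 64 snoRNAs called lower (horizontal axis) against that of the gene that holds each (vertical axis), red where the host was called higher and grey where it was not called, with the line of equal differences dotted. All snoRNAs plotted lie below 0, where 10 of the 64 are drawn at a measured difference that has only a bound, while the 48 hosts, some shared, have a median of 0.30 and none is called lower.

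Other short or non-coding transcripts leaned the same way, microRNA genes only weakly. By RefSeq's gene types, 582 of 1916 long non-coding RNAs fell (30.4%) and 46 rose (2.4%), with a median of -0.37 (-0.30 and -0.42 within the slides). Of 272 microRNA genes 60 fell (22.1%), near the 18.2% over all genes, and 2 rose (0.7%, against 16.6% over all genes). All 5 small nuclear RNAs tested fell, with a median of -2.83. Of 15131 protein-coding genes 2286 fell (15.1%) and 3540 rose (23.4%), with a median of 0.01. The medians of snoRNAs, small nuclear RNAs, long non-coding RNAs and microRNAs were below that of coding genes on signals without scaling too (-1.80, -2.64, -0.30 and -0.28 against 0.10). Of 74 ribosomal protein genes 23 rose and 0 fell, with a median of 0.29 and 1 lower at an unadjusted p under 0.05 in limma, but 6 rose on signals without scaling, 5 without Del replicate 3, 8 without Flox replicate 3 and 13 to 15 without Del replicate 1 or 4 or Flox replicate 2. Rpl21, a protein of the large subunit, stood at 4.66, 4.08, 5.06 and 4.36 on the 4 Del arrays and 2.62, 3.93, 3.24 and 3.44 on the 4 Flox arrays and rose by 1.23 (0.65 to 1.82, adjusted p = 0.0054), its probe well above background on 2 of 4 Flox arrays.

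The Del line against Flox was set beside the H/A line against WT, which share no sample. In H/A 3166 genes were called (10.1%), 2230 higher and 936 lower. Both comparisons called 1963 genes higher, 37.5% of those higher in Del and 88.0% of those higher in H/A. Both called 493 lower, which is 8.6% of those lower in Del and 52.7% of those lower in H/A, and 3 genes were called in opposite directions. Flox against WT itself called 7 genes (0.0222%). The difference of the differences, Del minus Flox less H/A minus WT, was called for 1 gene (0.00318%), while 2194 had an unadjusted p under 0.05. The gene is an unnamed transcript of the array design, XM_006502259.1, which stood at 11.52, 11.51, 11.50 and 11.46 on the 4 Del arrays and 10.30, 10.81, 10.93 and 10.73 on the 4 Flox arrays. It was 0.80 higher in Del than in Flox and 0.70 lower in H/A than in WT, and the difference of differences was 1.5 (adjusted p = 0.0168). It was also 1 of the 7 genes called between the control lines, with Flox minus WT at -1.35 (adjusted p = 0.00066), while the means of Del (11.50) and H/A (11.34) lay between those of Flox (10.69) and WT (12.04).

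The medians of these lists had the same sign in both lines. Mitosis genes had a median of 1.76 in Del against Flox and 1.69 in H/A against WT, and DNA replication genes 1.31 and 1.1. Box H/ACA RNAs had medians of -2.19 and -1.33, and 30 of 31 had the lower difference in Del, while box C/D RNAs had medians of -1.18 and -0.77, and 40 of 51 had the lower difference in Del. Over all genes 15569 of 31484 had the lower difference in Del. The snoRNAs were read on the same arrays, so they are not independent observations. None of these 82 snoRNAs passed the test of the difference itself in limma, and 11 and 21 of them had an unadjusted p under 0.05. Male-biased genes had medians of -1.02 and -1.81, and major urinary proteins of -2.12 and -3.38, farther below 0 in H/A. Of these 25 and 8 genes 0 passed the test of the difference in limma, with 1 and 0 at an unadjusted p under 0.05, and without Flox replicate 1 the medians in Del were -1.36 and -2.76. Among genes named by the smallest p of that test, Snord82 differed by -1.87 in Del and -0.53 in H/A, and Selenbp2, a selenium-binding protein, by 0.09 and -1.44. Selenbp2 was itself lower in Flox (11.21) than in WT (13.12), with a difference of -1.91 (adjusted p = 0.00066), with Del at 11.30 and H/A at 11.68. Nrcam, a cell adhesion molecule, was not well above background on any Del array and was at least 2.63-fold lower in Del, and it differed by 0.44 in H/A. The unnamed XM_006523308.1 was at least 1.41-fold lower in Del, and in H/A and WT it was well above background on 1 and 0 of 4 arrays. Among the largest rises and falls, Tcstv1, a transcript of the early embryo, was at least 4.96-fold higher in Del (adjusted p = 0.000172), and it was well above background on 1 of 4 H/A and 0 of 4 WT arrays. Its 4 Del arrays alone met the background filter, and no Flox array passed, so its rise was partly fixed by the filter. Dcaf12l2 was at least 3.37-fold lower in Del (adjusted p = 0.011) and differed by 0.58 in H/A, where it was well above background on 2 of 4 arrays, as in WT. Nrcam, XM_006523308.1 and Dcaf12l2 were kept only through arrays outside Del, so their fall was partly fixed by the filter. Lrrcc1, of the centrosome, differed by -3.96 and -0.04, but it was well above background on 1 of 4 Del arrays, its 4 probes ranged from -3.96 to 1.32 in Del, and the mean of its probes, -0.16, was not called. The differences between the lines in these 7 genes were not called after adjustment.

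**Figure D5:**
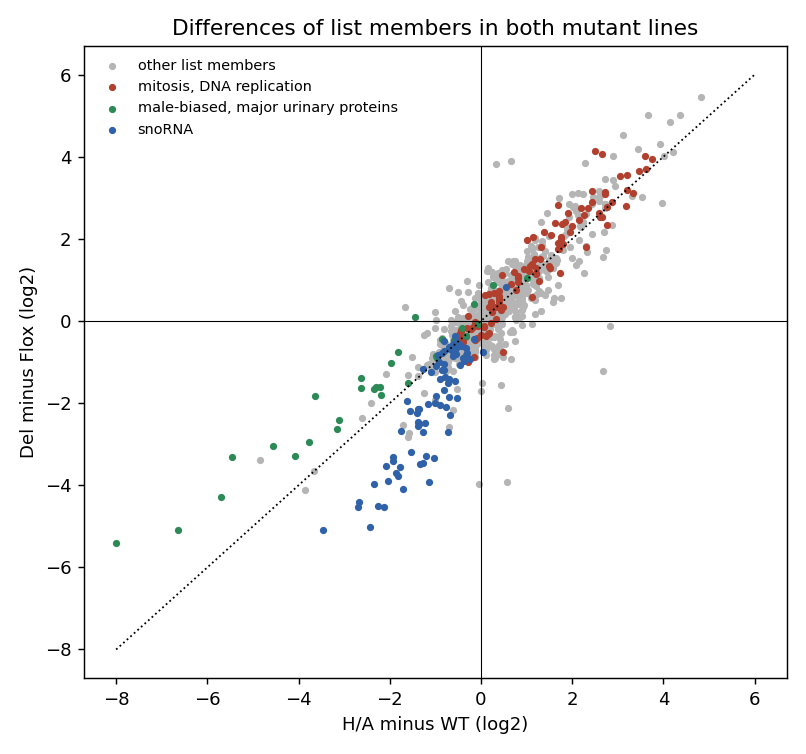
Difference between H/A and WT means (horizontal axis) against that between Del and Flox means (vertical axis), both log2, for each tested list member, 1 point per gene, with equal differences on the dotted line. Mitosis and DNA replication genes (red; medians 1.76 and 1.31 in Del, 1.69 and 1.1 in H/A) lie near the line, snoRNAs (blue) mostly below it and male-biased genes and major urinary proteins (green) mostly above it.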

How the data were processed

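Liver RNA of 16 mice was hybridised to Agilent 1-colour mouse arrays, 1 array per mouse. The deposited log2 value table was used; all 16 columns share a median of 4.36, and the authors' steps are not given in the sources used here beyond the names Agilent Feature Extraction 11 and Partek, per the submitters' processing notes. Scanner intensities were background-subtracted and detrended within each array by the feature extraction software, per the file headers, and supplied the deposited flags for spots well above background. For 6 of the 16 samples (4 of the 8 here) the listed scanner file was not that of the slide and position named in the label, and the files were therefore paired by label.

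Of the probes, 37819 passed the background flag on 4 or more of the 16 arrays and were kept, and the probe of highest mean stood for a gene (31484 genes, 17666 of them with a gene name). A linear model of the 4 genotypes over all 16 arrays was fitted with limma 3.58.1 (R 4.3.3), with Benjamini-Hochberg adjustment over all genes tested. It was tested on simulated data. Lists are described by counts and medians without a test of the list. A member not well above background in a group was kept only through arrays of the other groups. The direction of its difference can therefore be partly fixed by the filter. Members and lists were chosen with earlier results of these data known. Genes were named by rule: the 15 largest rises and 15 largest falls without overlap that have a name, the 4 members of smallest p of each list, every ceramide synthase and every member of lists of up to 16, the 5 genes of smallest p in the difference of differences, and defining cell markers; not all of these are given, and others are said to have been named after their values were seen. A symbol pattern for histones matched no gene. The alternatives were the 8 arrays alone, the slide as a block or alone, each replicate left out, other filters (none, or at least 12 arrays), scanner signals scaled by the 75th percentile or not at all, normexp with an offset of 50, files as listed, other moderation, array weights and the mean of a gene's probes. The 4 arrays per group limit the precision.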

Additional observations from a re-analysis of the deposited data

Results flagged for a closer look

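In 25 of 324 groups of 4 arrays (162 genes in 2 groups), 1 array lay so far from the other 3 that its gap exceeded Dixon's critical value for 4 values, where chance gives about 1 in 20 groups. Of these 25, 15 were on Flox replicate 1. That array was low in male-biased genes: Hsd3b5 at 6.09, Cyp7b1 at 6.87, Serpina4-ps1 at 6.71, Mup3 at 12.52 and Mup14 at 12.69. It was high in Gsta1 (9.63), Gsta2 (9.18), Nqo1 (6.21), the transporters Abcb1b (3.66) and Slc51b (3.53), the macrophage genes C1qb (9.76) and Clec4f (10.04), and Cgn (9.01) and Bcl2l11 (10.85). The value of the mitotic kinase Aurkb (2.04) was also above the other Flox arrays, but Aurkb was not well above background on any Flox array.

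Del replicate 3 stood apart in Ccnd1 (10.91) and C1qb (10.67), both the highest of the Del arrays, and in Igfbp1 (11.77), the lowest. Del replicate 2 was low in Abcb1b (1.83) and high in Snord58b (2.13), which was not well above background on any Del array. Del replicate 1 was high in Snord111 (2.88) and Dcaf12l2 (1.72), which were not well above background on any Del array. Flox replicate 2 was high in Cers5 (5.07) and low in Mmp12 (2.99), and Flox replicate 3 was low in Mlkl (4.91).

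The unnamed transcript XM_006502259.1 differed between the lines: the difference of differences was 1.5 on the log2 scale (adjusted p = 0.0168 in limma), with Del above Flox on every array. The control lines differed too, with Flox minus WT at -1.35 (adjusted p = 0.00066), and the Del (11.50) and H/A (11.34) means lay close together.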

How the results depend on the processing

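The counts of called genes moved with the processing. Against 5231 higher and 5717 lower, the counts were 118 and 42 within slide 1, where Del has 1 array, 2341 and 1162 within slide 2, and 3407 and 959 on signals without scaling; with the 8 arrays alone 3766 were lower. Leaving out 1 replicate gave 3174 to 5407 higher and 1924 to 6508 lower. With scanner files as listed, which mixes arrays of different genotypes, limma called 0 and 0 genes (2108 at an unadjusted p under 0.05). The 1 gene called in the difference of differences became 3 within slide 1, 162 within slide 2, 2 with array weights, 0 to 3 on leaving out a replicate (0 without Del or Flox replicate 4, with 2110 and 2308 at an unadjusted p under 0.05), and 0 with the 75th percentile (2027), without scaling (6068) or with files as listed (1110). The fits within a slide, with the 8 arrays alone and without a replicate hold fewer arrays, and the files as listed hold other arrays. The cause of these moves was not tested. Of 162 genes named, 154 were called and 129 of these on leaving out each replicate in turn. With the mean of a gene's probes Elovl1 turned to -0.79, Cgn to 0.11, Bcl2l11 to 0.14, Fas to 0.00 and Degs2, not called otherwise, to 0.64. No other alternative reversed a called gene that is named. Normexp correction, whose offset shrinks differences of dim probes, gave smaller medians for mitosis (0.64), DNA replication (0.58) and both classes of snoRNA (-1.08 and -0.59). No paired analysis was possible because the labels give array positions and no replicate number that links a Del mouse to a Flox mouse.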
